A study of Mus musculus with 3 samples.

Results

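The genes of the nuclear pore and of the receptors that carry cargo through it were followed in long-read PacBio libraries of mouse CD4+ T cells. They were picked by symbol alone. A protein-coding gene of the GENCODE M21 annotation was taken if its symbol was Nup, Kpna, Kpnb, Ipo, Xpo, Tnpo or Ranbp followed by a digit, which gave 51 of 21951 protein-coding genes. Of these, 22 encode nucleoporins, counting Ranbp2, and 29 encode transport receptors or other Ran-binding proteins. Proteins of the pore and of transport with other names, such as Sec13, Tpr and Ran itself, are counted separately at the end. T cells came from spleens and lymph nodes of male wild-type (WT) C57BL/6N mice aged 6 to 10 weeks. The 3 libraries were naive CD4+ T cells, CD4+ T cells activated with anti-CD3 and anti-CD28 antibodies for 48 h that had not divided (0 divisions), and cells of the same activation that had gone through 2 divisions, sorted by dilution of the dye CellTrace Violet. There was 1 library per condition, so no test was possible, every difference is one between libraries, and the mice or cultures behind each library are not described in the sources used here. The names given to the deposited data place both activated libraries on a shared sequencing cell, apart from the naive one. The sample titles and the paper do not state this. If it holds, activation and sequencing cell cannot be told apart.

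The nuclear pore is a ring-shaped channel built of nucleoporins. A scaffold of outer and inner rings is anchored in the nuclear membrane, and flexible nucleoporins rich in phenylalanine and glycine fill the channel. Importins bind their cargo in the cytoplasm and release it when Ran-GTP binds them in the nucleus, whereas exportins bind cargo together with Ran-GTP and release it in the cytoplasm. T cells that leave quiescence enlarge their nuclei, import transcription factors, and take apart and rebuild their pores at each mitosis.

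The data list the exons of long-read transcript models on GRCm38. Not every model is full-length, and those that begin inside a gene were also counted as isoforms. The data hold no read counts. An isoform is therefore listed or not, its abundance is unknown, and a gene without an isoform may still be expressed. A library listed 10527 to 12602 isoforms, with the naive library the smallest and the undivided library the largest. Median isoform length fell between 1953 and 2206 nt, and single-exon models made up 14.1% of isoforms in the naive library, 7.03% in the undivided library and 7.71% in the 2-division library. Of 14 CD4 T cell markers, 14 were seen in the naive library, 12 in the undivided library and 12 in the 2-division library. Cd3g and Trac were not seen in the activated libraries. Of 12 B cell markers, 7 were seen in the naive library, 2 in the undivided library and 2 in the 2-division library. Ms4a1 was listed in naive cells alone. Myeloid markers were at 1 of 10 in each library, CD8 T and NK markers at 2, 2 and 1 of 7, erythroid and platelet markers at 2, 0 and 0 of 8, and regulatory T markers at 3 of 5 in each. The regulatory T markers had 3, 14 and 11 isoforms, with Foxp3 listed in naive cells alone and Il2ra, which activated T cells also express, at 0, 10 and 6. In such bulk samples fewer cells of a type and less RNA per cell cannot be told apart, and the part of these other cells in the results was not tested.

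Several importin and nucleoporin genes had alternative 3′ ends, and the last 30 bases of selected transcripts are shown first. They were read from GRCm38 in the sense of the transcript and end with the base at which most isoforms of that end stop. Capitals mark the poly(A) signal nearest to the end, AATAAA or ATTAAA, searched on the transcribed strand in the last 50 nt. Nup50, a nucleoporin of the nuclear basket, and the import receptors Tnpo1, Kpna3 and Ipo5 are shown because their ends differed between libraries.
Nup50, 3′ UTR of 159 nt, chr15:84939978-84940007, plus strand: ttaaggccAATAAAtcctttcagtgtgtcg
Nup50, 3′ UTR of 3107 nt, chr15:84942926-84942955, plus strand: atccatgaaatgtgAATAAAtggaaagttg
Tnpo1, 3′ UTR of 617 nt, chr13:98844039-98844068, minus strand: aaaagttggaAATAAAaggaaacaaatttg
Tnpo1, 3′ UTR of 752 nt, chr13:98843904-98843933, minus strand: tctaatttcacATTAAAatgttagtggata
Kpna3, 3′ UTR of 580 nt, chr14:61367051-61367080, minus strand: gATTAAAaagataagttttttaaaactgta
Kpna3, 3′ UTR of 1188 nt, chr14:61366443-61366472, minus strand: gcacacATTAAAagataaaccaaggatctg
Kpna3, 3′ UTR of 2411 nt, chr14:61365220-61365249, minus strand: ggttttgtaaccAATAAAaaagctgctatc
Ipo5, 3′ UTR of 60 nt, chr14:120946836-120946865, plus strand: aactccaAATAAAcgtttacccttttgttt
Ipo5, 3′ UTR of 602 nt, chr14:120947378-120947407, plus strand: gtctcattcactcctcAATAAAcagcattg
Ipo5, 3′ UTR of 1227 nt, chr14:120948003-120948032, plus strand: tttgcattacttcATTAAAacaaaatttgg

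At least 1 isoform was seen for 31 of the 51 genes in the naive library, 36 in the undivided library and 33 in the 2-division library. These were 60.8% (95% Clopper-Pearson interval 46.1% to 74.2%), 70.6% (56.2% to 82.5%) and 64.7% (50.1% to 77.6%) of the genes. Such intervals cover counting error only. Of all protein-coding genes, which include genes silent in T cells, 21.1%, 24.9% and 23.1% were seen. The genes had 50 isoforms in the naive library, 89 in the undivided library and 86 in the 2-division library, or 1.61, 2.47 and 2.61 per gene seen, beside 2.02, 2.19 and 2.08 over all protein-coding genes. The number of isoforms was thus 1.78 times the naive number in undivided cells and 1.72 times after 2 divisions, while over all protein-coding genes these ratios were 1.28 and 1.13. Between the activated libraries the ratio of 2 divisions to undivided was 0.966, beside 0.879 over all protein-coding genes.

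**Figure D1:**
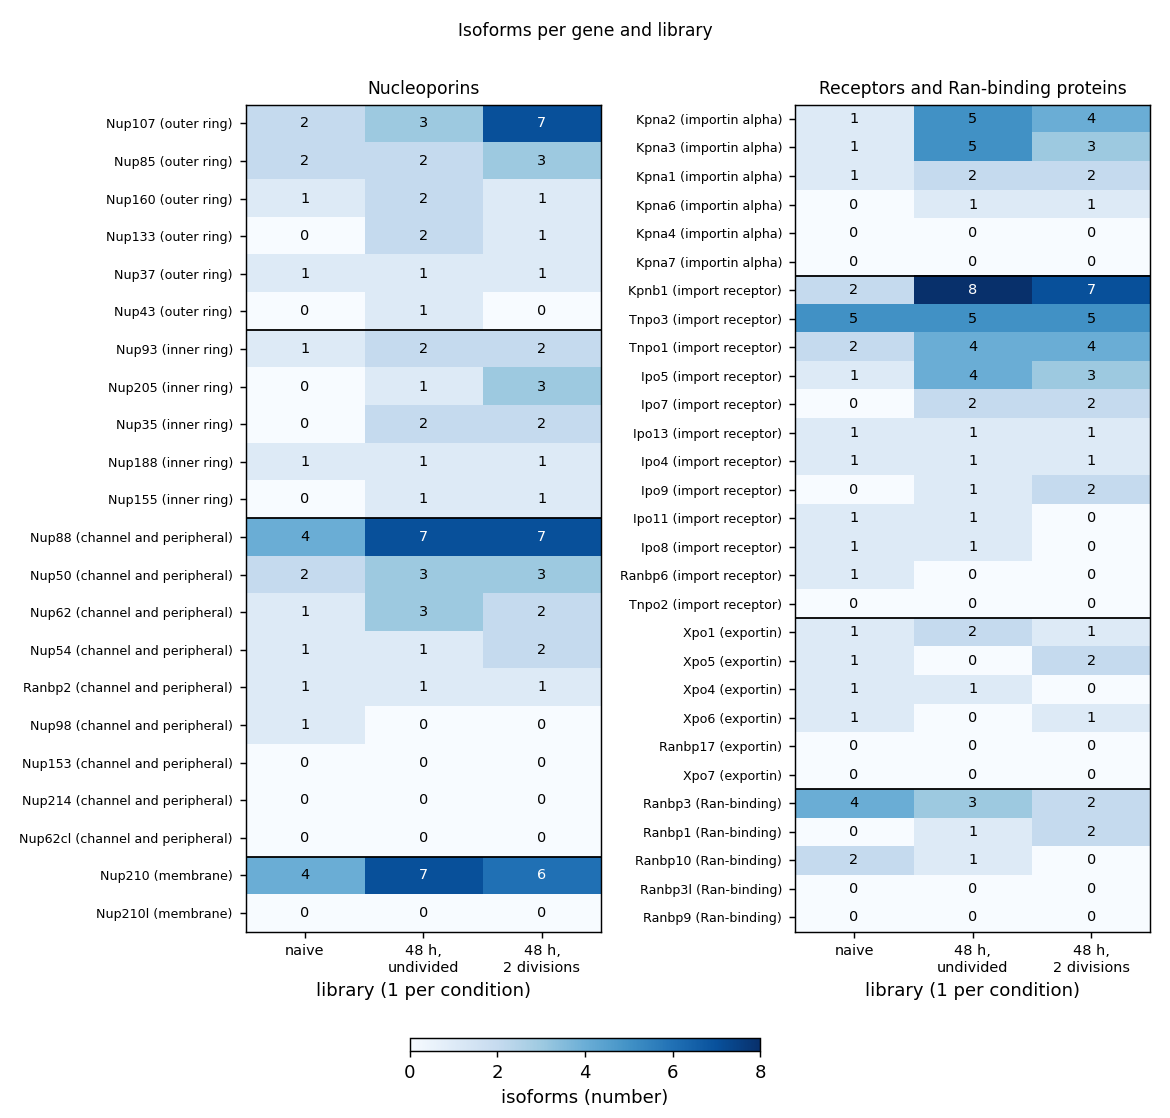
Number of isoforms of each of the 51 genes (rows, grouped by role) in each library (columns), with the number in the cell and as colour. Kpnb1, Nup88, Nup210 and Nup107 reach the highest numbers, 7 or 8 isoforms in at least 1 activated library, and 11 genes have no isoform in any library.

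Gene by gene, 23 of the 40 genes seen in either library had more isoforms in undivided than in naive cells (57.5%), 6 had fewer (15.0%) and 11 had as many. Over all protein-coding genes, 49.3% had more and 26.1% had fewer. After 2 divisions, 23 of 39 genes had more isoforms than in naive cells and 7 had fewer (59.0% and 17.9%), beside 44.1% and 31.4% over all protein-coding genes. With 2 divisions against undivided cells, 8 of 38 had more and 15 had fewer (21.1% and 39.5%), close to the 26.4% and 40.8% of all protein-coding genes. The median difference from naive cells was 1 isoform in each activated library, beside 0 over all protein-coding genes. The libraries differed in size, and the part of library size in these counts was not tested.

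In undivided against naive cells, 9 genes were seen only in undivided cells and 4 only in naive cells (22.5% and 10% of 40), beside 26.6% and 13.2% over all protein-coding genes. After 2 divisions against naive cells the counts were 8 and 6 of 39, beside 24.1% and 16.9%, and after 2 divisions against undivided cells they were 2 and 5 of 38, beside 11.2% and 17.9%. Each of these shares was near or below that of all protein-coding genes. A set of 23 genes was seen in each library. Of the 8 genes seen in both activated libraries and not in naive cells, 4 were nucleoporins of the rings, Nup133, Nup155, Nup205 and Nup35. The share of all protein-coding genes with this pattern was not counted. The other 4 were the importins Ipo7, Ipo9 and Kpna6 and the Ran cofactor Ranbp1. Nup43 was seen in undivided cells alone, and Nup98 and Ranbp6 in naive cells alone. Ipo11, Ipo8, Ranbp10 and Xpo4 were missing after 2 divisions, and Xpo5 and Xpo6 were missing in undivided cells. No isoform was listed in any library for Kpna4, Kpna7, Nup153, Nup210l, Nup214, Nup62cl, Ranbp17, Ranbp3l, Ranbp9, Tnpo2 and Xpo7. The principal transcript, the main annotated protein-coding one, had a median of 4472 nt in the 11 unseen genes, 4575 nt in the 3 seen in 1 library, 5334 nt in the 14 seen in 2 libraries and 4069 nt in the 23 seen in each library. These medians over all protein-coding genes with a principal transcript were 2151, 2995, 2794 and 2573 nt. They came from 15112 genes seen in no library, 1709 in 1, 1688 in 2 and 3357 in each library.

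The outer ring of the pore is built around the Y-shaped complex of Nup107 and Nup160. Its 6 genes had 6 isoforms in the naive library, 11 in the undivided library and 13 in the 2-division library, with 4, 6 and 5 genes seen. Nup107 had 2, 3 and 7 isoforms, most of the difference between the 2-division and the naive library. Nup85 had 2, 2 and 3, Nup160 had 1, 2 and 1, Nup133 had 0, 2 and 1, and Nup43 had 0, 1 and 0. Nup37 was listed once per library, as the same model of 10 exons and 1252 nt from the same first to the same last base. The inner ring, which joins the outer rings to the membrane and the channel, had 2 genes seen in naive cells and 5 of 5 in each activated library. Of all 51 genes, 31, 36 and 33 were seen, and the difference between these counts was not tested. The isoforms of the inner ring numbered 2, 7 and 9. Nup188, with 44 exons, was represented in each library by 1 isoform of 5684 or 5685 nt that held the whole coding sequence. Nup205 was listed with 43 exons and 6218 nt in undivided cells and with 43 exons and 6217 nt after 2 divisions, where 2 more models began inside the gene.

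Nucleoporins of the channel and of its cytoplasmic and nuclear faces had 10 isoforms in the naive library, 15 in the undivided library and 15 in the 2-division library, from 6, 5 and 5 of 9 genes. Nup88, on the cytoplasmic face, had 4, 7 and 7 isoforms. Nup62, a subunit of the channel, had 1, 3 and 2 isoforms, and its partner Nup54 had 1, 1 and 2. Ranbp2, the giant protein of the cytoplasmic filaments, had 1 isoform in each library, and none of the 3 reached the stop codon. Nup210, a membrane protein of the pore, had 4, 7 and 6 isoforms, and 1 in each library covered the annotated 40 exons with a length of 7004 to 7024 nt. Of its 17 isoforms, 12 began after the start codon, and 16 ended within 2 nt of each other, behind the same AATAAA. The Nup210 models thus differed mostly in their 5′ extent. Whether a model that begins inside the gene reaches the 5′ end of its transcript was not tested.

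Import receptors other than the importin alpha family had 15 isoforms in the naive library, 28 in the undivided library and 25 in the 2-division library, from 9, 10 and 8 of 12 genes. Kpnb1, the importin beta that carries importin alpha and its cargo, had 2, 8 and 7. Tnpo3, which imports splicing factors of the SR family, had 5 in each library. Tnpo1, which imports RNA-binding proteins, had 2, 4 and 4, and Ipo5, an importin of ribosomal proteins and histones, had 1, 4 and 3. Ipo7 had 0, 2 and 2, Ipo9 had 0, 1 and 2, and Ipo13 and Ipo4 had 1 isoform in each library. The 6 importin alpha genes, whose products recognise the classical nuclear localization signal, had 3, 13 and 10 isoforms. Kpna2 had 1, 5 and 4, Kpna3 had 1, 5 and 3, Kpna1 had 1, 2 and 2, and Kpna6 had 0, 1 and 1.

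The 6 exportin genes taken by the symbol rule had 4 isoforms in the naive library, 3 in the undivided library and 4 in the 2-division library. They came from 4, 2 and 3 genes. Cse1l, with 1, 3 and 2 isoforms, and Xpot, with 0, 1 and 0, also encode exportins but fall outside the rule. Xpo1, the main exporter of proteins with a nuclear export signal, had 1, 2 and 1 isoforms. Xpo5, which exports precursors of microRNAs, had 1, 0 and 2, Xpo6, the exporter of actin, had 1, 0 and 1, and Xpo4 had 1, 1 and 0. Of the other Ran-binding proteins, Ranbp3, a cofactor of Xpo1, had 4, 3 and 2 isoforms, Ranbp10 had 2, 1 and 0, and Ranbp1, which promotes GTP hydrolysis by Ran, had 0, 1 and 2. At these low numbers a difference of 1 isoform has no measured error. The difference between exportins and importins was not tested.

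A gene has tandem ends when several 3′ ends, counted as separate when over 24 nt apart, share 1 terminal exon, that is, when isoforms of the same last splice acceptor stop at different places. Tandem ends were seen in 5 of 30 genes with a multi-exon isoform in the naive library (16.7%, interval 5.64% to 34.7%), 11 of 35 in the undivided library (31.4%, 16.9% to 49.3%) and 14 of 33 in the 2-division library (42.4%, 25.5% to 60.8%). Over all protein-coding genes the shares were 18.4%, 24.5% and 22.4%. The naive share of the pore and receptor genes lay near that of all genes. After 2 divisions the lower bound of the interval was 25.5%, beside 22.4% for all genes. These intervals cover counting error over genes only, and with 1 library per condition the difference was not tested. Without A-rich ends, as defined below, 4, 9 and 12 genes had tandem ends in the naive, undivided and 2-division libraries. A gene needs more than 1 isoform to show tandem ends. Isoforms per gene seen numbered 1.61, 2.47 and 2.61 in the naive, undivided and 2-division libraries, beside 2.02, 2.19 and 2.08 over all protein-coding genes. The part of isoform number in these shares was not tested. With ends over 100 nt apart alone, 4, 7 and 13 genes had tandem ends in the naive, undivided and 2-division libraries. The shares over all protein-coding genes were not counted at this setting. Kpnb1, Nup50, Nup88 and Tnpo3 had tandem ends in each library. Over the libraries together, 16 genes had 41 ends in such terminal exons. Of these ends, 26 followed AATAAA or ATTAAA, 7 were A-rich, meaning that at least 12 of the 20 genomic bases after them were A, and 12 were neither. An A-rich stretch can prime reverse transcription within a transcript, and its part in these ends was not tested. An annotated end lay within 24 nt of 22 of the 41. Each 3′ UTR length was counted along the exons from the stop codon of the principal annotated transcript. This also holds for isoforms whose own reading frame stops earlier. Ends were merged over the libraries, and unless a library's own value is named the 3′ UTR length given is that of the base at which most isoforms of the end stop, or the outermost base in ties.

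**Figure D2:**
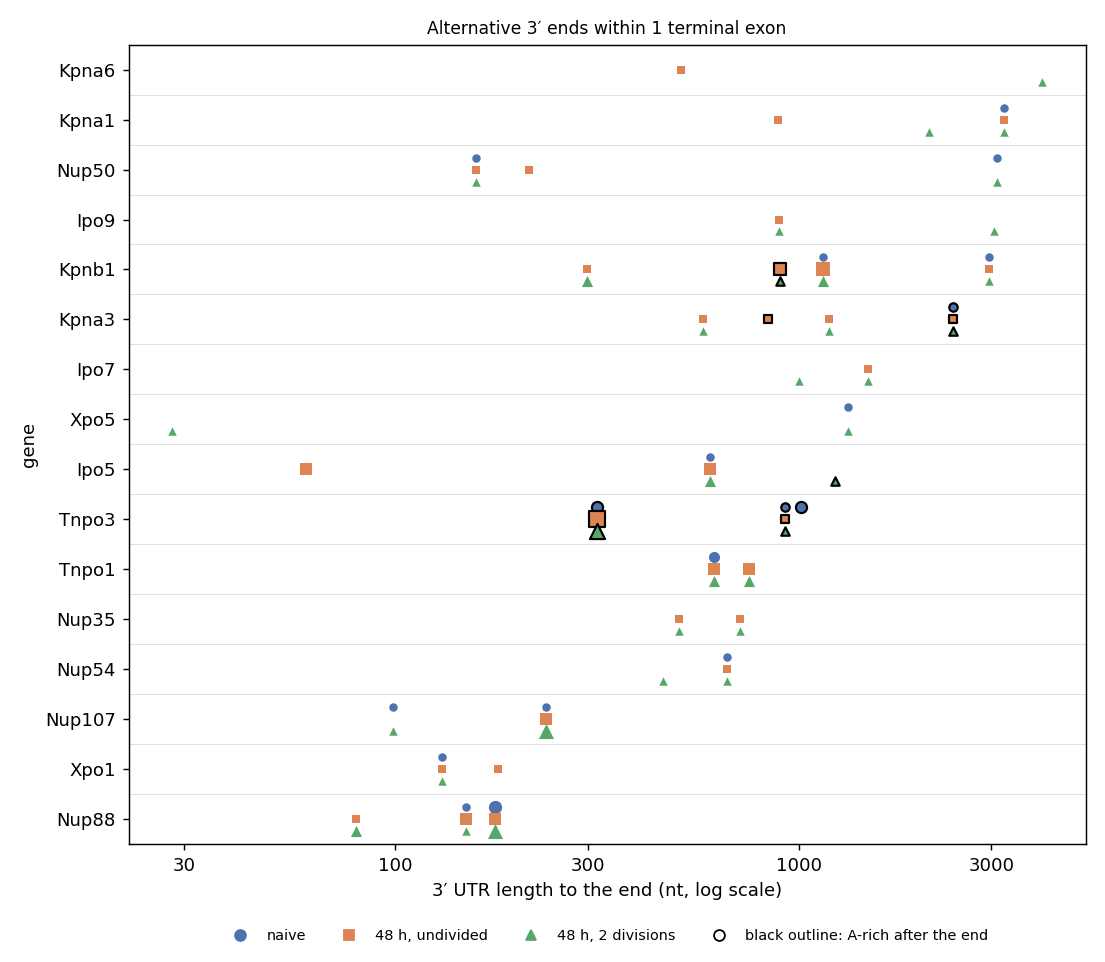
3′ UTR length to each end (x axis, nt, log scale) in the 16 genes with several ends in 1 terminal exon (y axis), for the naive, undivided and 2-division libraries. Larger symbols stand for more isoforms at that end and black outlines for A-rich ends. Kpna3, Kpna1 and Kpnb1 keep their longest 3′ UTR in each library, and their shortest ends are seen in activated libraries only.

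Kpna3 had 1 end in naive cells, with a 3′ UTR of 2411 nt. Undivided cells had further 3′ UTRs of 578, 837 and 1183 nt, and cells after 2 divisions had those of 580 and 1188 nt, which were merged with the 578-nt and 1183-nt ends. All 8 of these isoforms had the 17 annotated exons, so they shared their introns and differed in the 3′ UTR. The ends at 580 and 1188 nt followed ATTAAA and lay 1840 and 1232 nt from the nearest annotated end, while the end at 837 nt was A-rich and had no signal. The distal end followed AATAAA and had 12 A in the 20 bases after it in naive cells and after 2 divisions, and 10 in undivided cells, where it lay 8 nt farther.

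Kpnb1 ended at 3′ UTR lengths of 1149 and 2964 nt in naive cells, with 1 isoform each. Both activated libraries also had ends at 299 and 901 nt. The end at 1149 nt had 3 isoforms in undivided cells and 2 after 2 divisions, and no signal was found in its last 50 nt. At its outermost base it had 0 A in the 20 bases after it. The end at 901 nt was A-rich and followed AATAAA, and that at 299 nt followed ATTAAA. Kpna1 had 1 distal end, at 3205 nt in the naive library and at 3223 and 3224 nt in the activated ones. Undivided cells also had an end at 887 nt, and cells after 2 divisions one at 2107 nt.

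In Nup50 the distal end was not listed in undivided cells. Its 3′ UTR of 159 nt was listed once in each library, and that of 3107 nt once in naive cells, not in undivided cells and once after 2 divisions. Undivided cells instead had an end at 215 nt, with no signal. After 2 divisions a single-exon model of 1721 nt also stopped at the distal end. Both the proximal and the distal end lay within 8 nt of an annotated end. Without read counts, absence of the distal end in undivided cells cannot be told from an isoform missed at this depth.

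Tnpo1 combined alternative starts with alternative ends. Its isoforms began either at an upstream first exon, at 98926336 to 98926364 on chromosome 13 (minus strand), or at a downstream one, at 98891024 to 98891047. In naive cells each start was joined to the 3′ UTR of 617 nt. In both activated libraries each start was joined to 617 nt and to 752 nt, with 1 isoform for each of the 4 combinations. All 10 isoforms held the whole coding sequence, and their nearest annotated end lay at least 3019 nt away. Both ends followed a signal, as shown in the sequences at the start.

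Ipo5 had the 602-nt 3′ UTR in each library. Undivided cells also had 2 isoforms with a 3′ UTR of 60 nt, and cells after 2 divisions had 1 of 1227 nt, so the added end lay nearer to the stop codon in undivided cells and farther from it after 2 divisions. The end at 60 nt had 1 A in the 20 bases after it and lay 553 nt from an annotated end, while the end at 1227 nt was A-rich. Kpna6 was seen with a 3′ UTR of 510 nt in undivided cells and of 4008 nt after 2 divisions, with 1 isoform each. Ipo9 was listed at 892 nt in both activated libraries and at 3050 nt after 2 divisions, and Ipo7 at 1488 nt in both and at 1001 nt after 2 divisions. In undivided cells another Ipo7 isoform stopped at the same base as the 1001-nt end but had lost 816 nt of the 3′ UTR as an unannotated intron, which left 185 nt and another terminal exon. Nup35 was listed at 505 and 715 nt in both activated libraries, each behind AATAAA.

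In Nup88 the ends at 80, 150 and 177 nt lay close together, and the end at 80 nt was seen in activated cells alone, with 1 isoform in undivided cells and 2 after 2 divisions. Nup107 ended at 99 and 237 nt in naive cells and after 2 divisions, and at 237 nt in undivided cells. Nup54 had an end at 664 nt in each library and one at 462 nt after 2 divisions. Xpo1 had an end at 120 nt in naive cells, merged with the ends at 119 and 131 nt of the undivided and 2-division libraries, and undivided cells also had one at 180 nt. Xpo5 had an end at 1328 nt in naive cells and after 2 divisions, and one at 28 nt after 2 divisions. All 3 ends of Tnpo3, at 317, 924 and 1015 nt, were A-rich, and the last was seen in naive cells alone with 20 of 20 bases A after it. Nup133 had ends 36 nt apart in undivided cells and a single end between them after 2 divisions. Its 3′ UTRs of 49, 68 and 85 nt stopped 2166 to 2202 nt from the nearest annotated end.

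Terminal exons that begin at the same splice acceptor in both libraries were then compared by their mean length, and a difference of over 100 nt was taken as shorter or longer. Of 23 such terminal exons, in the undivided library 6 were shorter than in the naive one and 0 were longer (26.1% and 0.00%). Over all protein-coding genes 13.0% were shorter and 5.67% longer. The 6 were those of Nup50 (mean 389.5 nt in undivided cells and 1836 nt in naive cells), Kpna3 (1353.2 and 2510 nt), Kpna1 (2243 and 3393 nt), Kpnb1 (1215.3 and 2057 nt), Tnpo3 (397.4 and 680.6 nt) and Ipo5 (421.2 and 689 nt). After 2 divisions against naive cells, 5 of 23 were shorter and 1 was longer (21.7% and 4.35%), beside 13.6% and 4.78% over all protein-coding genes. The 5 were Kpna3, Kpnb1, Xpo5, Kpna1 and Tnpo3, with differences of -1018, -931.2, -650, -539.5 and -283.2 nt, and the longer one was Ipo5 with 208.3 nt. With the longest terminal exon of each gene in place of the mean, 1 was shorter in undivided cells, that of Nup50, and 0 after 2 divisions. Without A-rich ends, 3 were shorter and 0 longer after 2 divisions. The shorter means thus came mostly from proximal ends added beside a distal end that was still listed. The naive library held 1 isoform in the terminal exons of Kpna1, Kpna3, Ipo5 and Xpo5 and could show 1 end only.

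After 2 divisions against undivided cells, 2 of 33 terminal exons were shorter and 6 were longer (6.06% and 18.2%), beside 8.41% and 6.95% over all protein-coding genes. The longer ones were those of Kpna6 (4196 nt after 2 divisions and 698 nt in undivided cells), Nup50 (1836 and 389.5 nt), Ipo9 (2079.5 and 1003 nt), Kpna1 (2853.5 and 2243 nt), Ipo5 (897.3 and 421.2 nt) and Kpna3 (1492 and 1353.2 nt). The shorter ones were those of Ipo7 (1342.5 and 1586 nt) and Nup54 (692 and 793 nt). That of Ipo7 leaves out the undivided isoform with the unannotated 3′ UTR intron. These terminal exons rest on 1 to 4 isoforms in each library, and without A-rich ends 4 were shorter and 5 longer.

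Of 59 merged ends in undivided cells, 45.8% were found in naive cells, beside 55.8% over all protein-coding genes. Of 38 ends in naive cells, 71.1% were found in undivided cells, beside 67.9%. Of 54 ends after 2 divisions, 51.9% were found in naive cells, beside 57.4%, and 73.7% of the naive ends were found after 2 divisions, beside 63.3%. Between the activated libraries, 77.8% of the ends after 2 divisions were found in undivided cells, beside 76.1%, and 72.9% of the undivided ends were found after 2 divisions, beside 68.9%. Of the intron chains, 38 were common to both activated libraries, which was 62.3% of the 61 after 2 divisions and 59.4% of the 64 in undivided cells, beside 63.0% and 56.2% over all protein-coding genes. Naive cells shared 27 of their 40 chains with each activated library (67.5%), beside 56.5% with undivided cells and 52.4% with cells after 2 divisions over all protein-coding genes. These 27 were 42.2% of the undivided chains and 44.3% of those after 2 divisions, beside 45.3% and 47.2%.

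**Figure D3:**
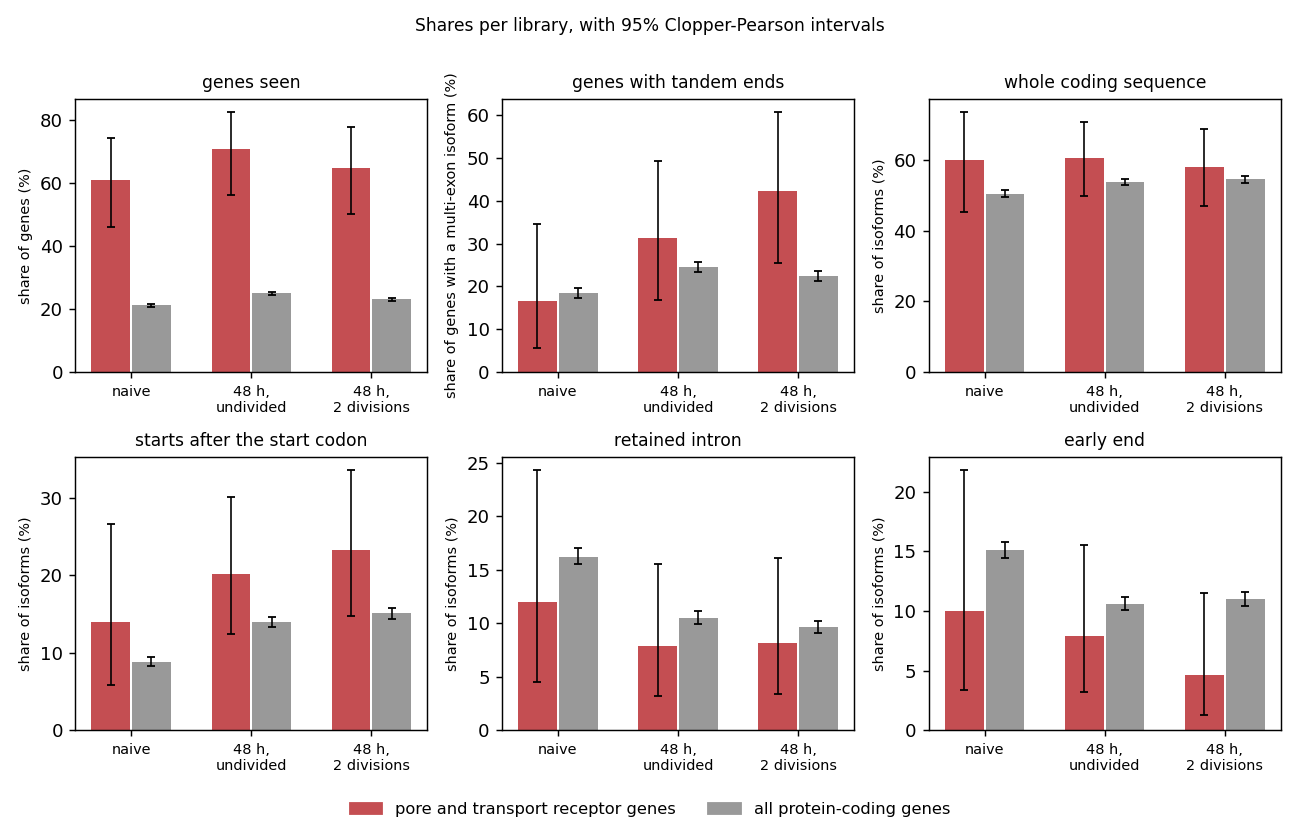
Share of genes or isoforms (y axis, %) in 6 classes for the pore and transport receptor genes and for all protein-coding genes in the 3 libraries, with 95% Clopper-Pearson intervals as error bars. The intervals of genes seen start above the share of all protein-coding genes in each library, as does that of tandem ends after 2 divisions. The other intervals of the pore and receptor genes mostly span that share. Intervals cover counting error only, and no difference was tested.

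The whole annotated coding sequence, from start to stop codon with each intron removed as annotated, was held by 30 of 50 isoforms in the naive library (60.0%), 54 of 89 in the undivided library (60.7%) and 50 of 86 in the 2-division library (58.1%). Over all protein-coding genes these were 50.4%, 53.7% and 54.5%. Isoforms that began after the start codon made up 14.0%, 20.2% and 23.3%, beside 8.84%, 14.0% and 15.1%. Whether such models are whole transcripts was not tested, and they are included in the isoform numbers. Kpnb1 had no isoform that began after the start codon in the naive library, 4 of 8 in the undivided library and 3 of 7 in the 2-division library. Ranbp10 was represented past its early end only by single-exon models of 624 and 625 nt.

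An intron of the principal transcript was retained in 12% of isoforms in the naive library, 7.87% in the undivided library and 8.14% in the 2-division library, beside 16.2%, 10.5% and 9.61% over all protein-coding genes. There were 10 such introns in 9 genes, and 3 were seen in each library. These were intron 14 of Nup85 (669 nt, chr11:115581073-115581741), intron 11 of Nup88 (232 nt, chr11:70944971-70945202) and intron 19 of Tnpo3 (190 nt, chr6:29554963-29555152). Read from the annotated start codon, the Nup85 form ended after 519 of 656 codons, the Nup88 form after 549 of 742 and the Tnpo3 form after 829 of 923. In each the stop codon lay at least 509 nt before the last splice junction, a position that is known to mark mRNAs for nonsense-mediated decay. Decay was not measured.

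Other retained introns were seen in fewer libraries. Kpna2 kept its last intron (344 nt) in 1 isoform of each activated library. After 2 divisions this isoform read 511 codons in place of 529, and in undivided cells it also lacked exon 4 (89 nt) and stopped after 75. Nup93 kept intron 6 (2278 nt) in undivided cells and stopped after 211 of 819 codons. Ranbp1 kept intron 5 (700 nt) after 2 divisions, with 232 codons in place of 203, and Ranbp3 kept intron 11 (217 nt) in naive cells, with 349 in place of 491. Intron 1 of Xpo1 was kept in the 2 isoforms of undivided cells and in that after 2 divisions, which matched the annotated Xpo1-202 and left the reading frame unchanged.

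Exon skipping was rarer. In undivided cells 2 isoforms of Ipo5 joined exon 4 to exon 12 through an unannotated intron of 10891 nt (chr14:120922160-120933050) and lost 7 exons with 766 nt. Their ends lay 60 and 615 nt past the annotated stop codon, the latter merged with the 602-nt end. Both read 163 of 1097 codons, so their own reading frame stopped before that codon. Nup107 lost exon 2 (92 nt) in 1 isoform after 2 divisions, with 39 of 926 codons left. Unannotated introns numbered 13 in 12 genes, and 11 of them were seen in 1 library. Of the other 2, that of Nup210 (6512 nt, chr6:91046860-91053371) was seen in naive cells and after 2 divisions, where both isoforms read 955 of 1886 codons. That of Xpo5 (911 nt, chr17:46236001-46236911) was the annotated intron shifted by 1 base, at equal length, in all 3 Xpo5 models, and the reading frame of both models with a start codon kept its 1204 codons. These models were not counted as holding the whole coding sequence.

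The start codon lay in 43 isoforms in the naive library, 71 in the undivided library and 66 in the 2-division library. Of these, 33, 56 and 54 read through to the annotated stop codon. In 10 isoforms of each library another stop codon came first, and 0, 5 and 2 had no stop codon. The annotated stop was reached with a different number of codons in Nup88, with 747 in place of 742 in at least 1 isoform of each library, and in Ranbp3, with 558 in place of 491 in each library. Both matched annotated transcripts, Nup88-203 and Ranbp3-206.

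Ends before the stop codon of the principal transcript were counted as early ends. They were found in 5 of 50 isoforms in the naive library (10%, interval 3.33% to 21.8%), 7 of 89 in the undivided library (7.87%, 3.22% to 15.5%) and 4 of 86 in the 2-division library (4.65%, 1.28% to 11.5%). Over all protein-coding genes the shares were 15.1%, 10.6% and 11.0%. The 16 isoforms came from 10 genes. None of them had AATAAA or ATTAAA in the last 50 nt, while 166 of the 209 other isoforms did (79.4%). Of the early ends 13 were A-rich, beside 23 of the 209 other ends (81.2% and 11.0%). Over all protein-coding genes 79.6% of early ends were A-rich and 14.5% had a signal, beside 14.0% and 75.2% of the other ends. All 8 early ends inside introns were A-rich, and 5 of the 8 inside coding exons.

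**Figure D4:**
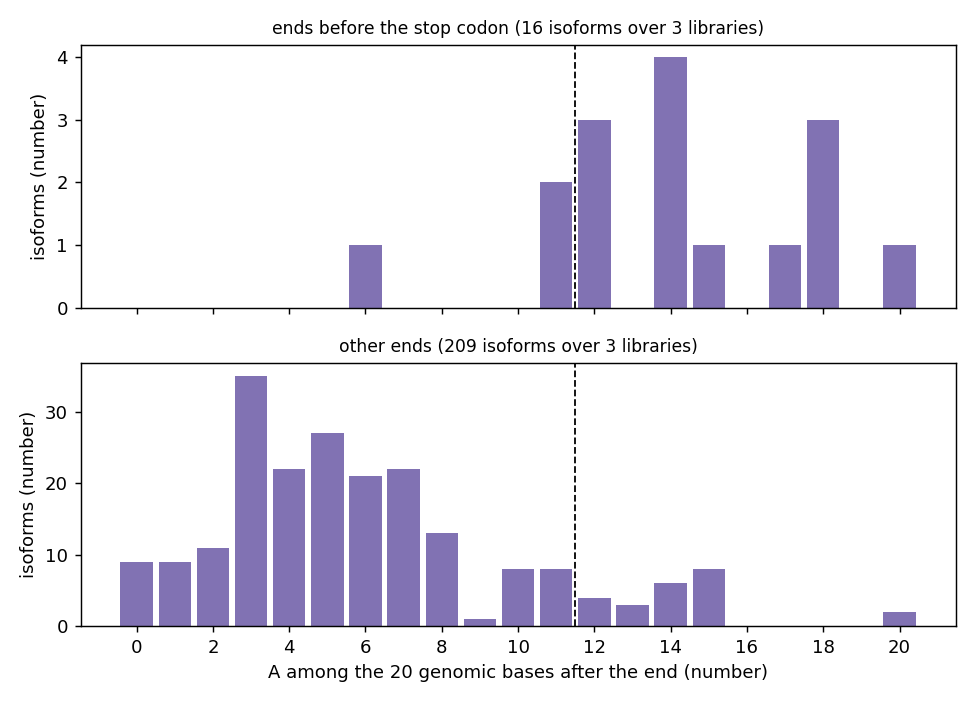
Number of isoforms (y axis) by the number of A among the 20 genomic bases after the end (x axis), for the 16 early ends (top) and the 209 other ends (bottom) of the pore and receptor genes over the 3 libraries. Bars right of the dashed line are A-rich (12 or more), with 13 of the early and 23 of the other ends.

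The early ends without an A-rich stretch were those of Nup50 and Nup107. In undivided cells a Nup50 isoform of 6 exons stopped inside exon 6, with 6 A in the 20 bases after it. It read 358 codons of 466 without a stop codon. Nup107 isoforms of 25 exons stopped at the same base inside exon 25 in both activated libraries, with 11 A after it. The form after 2 divisions read 791 of 926 codons without a stop codon, and the undivided form stopped after 102. Ranbp2, whose coding sequence is the longest among the genes seen (9159 nt), was cut short in each library. The naive isoform had 6 exons and an end followed by 20 of 20 A. That end lay 0 nt from an annotated end, while the isoform's chain of introns matched no annotated transcript. In the activated libraries 20 exons and 5331 or 5378 nt were listed, with ends 18 nt apart inside exon 20 and 12 A after each. Nup98 was seen in naive cells as a model of 12 exons that stopped in intron 11 with 18 A after it, so it had no isoform that reached its stop codon.

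In the other early ends, Kpna3 stopped inside exon 12 in undivided cells (14 A), and Nup88 inside exons 13 and 14 (12 and 14 A). Nup210 stopped in intron 20 after 2 divisions (15 A), and Nup107 also in intron 21 (18 A). Nup160 stopped in intron 33 in naive cells (18 A) and in intron 30 in undivided cells (14 A), and its whole coding sequence was listed in the activated libraries alone. Xpo4 stopped in intron 1 (17 A) and Ranbp10 in intron 3 (14 A) in naive cells, and this Ranbp10 form was the annotated Ranbp10-202. Leaving out A-rich ends, early ends remained in 0 genes in the naive library, 2 in the undivided library and 1 in the 2-division library.

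Genes of nuclear transport with other names were counted from lists. Of 8 genes of the Ran cycle and other carriers, 4 were seen in the naive library, 7 in the undivided library and 6 in the 2-division library, with 7, 24 and 20 isoforms. Ran, the GTPase that gives transport its direction, had 1, 3 and 5 isoforms, and Rcc1, its exchange factor in the nucleus, had 0, 3 and 2. Rangap1, which makes Ran hydrolyse GTP, had 4, 9 and 6, Nutf2, which imports Ran, had 1, 4 and 4, and Cse1l, which returns importin alpha to the cytoplasm, had 1, 3 and 2. Of 13 other pore components 8, 11 and 10 were seen, with 15, 28 and 18 isoforms. Of 14 genes of mRNA export 11, 10 and 12 were seen, with 23, 23 and 27 isoforms. Differences between these lists were not tested.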

How the data were processed

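Per the authors' methods, consensus reads were made with ccs, primers were removed with lima, reads with a poly(A) tail were kept and clustered with isoseq3, and the clusters were aligned with pbmm2, merged into unique isoforms by isoseq3 collapse and classified by SQANTI3. The submitters' processing notes name Subread, minimap2, mm10 and GRCm38. The deposited files hold positions of exons and no counts. Annotation here was GENCODE M21, and "unannotated" refers to it. Here, each model was assigned to the gene sharing most splice sites on its strand (exonic overlap as a tie-break), and the principal transcript was the APPRIS principal one with the longest coding sequence. On the reference, 96.2% of 68209 distinct introns were annotated. Calculations used Python 3.11.15, numpy 2.4.6, scipy 1.17.1, pysam 0.24.0 and matplotlib 3.10.9. Gene assignment, whole coding sequences, tandem ends and terminal exon lengths were checked on models made from annotated transcripts. A-rich ends, poly(A) signals, retained introns, skipped exons and reading frames were not checked in this way. The members and lists were chosen with earlier results of these data known. Described singly were the 10 members with most isoforms, those with tandem or early ends or terminal exons that differed, and those seen in naive cells alone or in activated cells alone with at least 2 isoforms in 1 library. Other members were named after their values were seen. Alternatives changed the assignment, the models counted, the merging distance, the length threshold and the treatment of A-rich ends.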

Additional observations from a re-analysis of the deposited data

How the results depend on the processing

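Of 96 alternative values for 27 results, 73 were classed as the same and 23 as moved. Values classed as the same could still differ. Naive isoforms with the whole coding sequence numbered 40 in place of 30 when introns were not compared. Genes seen after 2 divisions numbered 22 in place of 33 when at least 2 isoforms were required. Requiring at least 2 isoforms, 10 genes were seen in naive cells and 20 in undivided cells. With at least 2 isoforms against none, 3 genes were gained and 0 lost in undivided against naive cells, 5 gained and 1 lost after 2 divisions against naive cells, and 1 gained and 0 lost after 2 divisions against undivided cells. Without A-rich ends, early ends stayed in 0 genes of the naive library, 2 of the undivided and 1 of the 2-division library. With tandem ends over 100 nt apart, 7 genes had them in undivided cells. By the longest terminal exon, 1 was shorter and 1 longer in undivided against naive cells, 0 shorter and 2 longer after 2 divisions against naive cells, and 0 shorter after 2 divisions against undivided cells. With a threshold of 50 nt, 2 were longer in undivided and 2 after 2 divisions against naive cells. With 200 nt, 1 was shorter after 2 divisions against undivided cells. Without A-rich ends, 3 were shorter and 0 longer after 2 divisions against naive cells, and 4 shorter and 5 longer after 2 divisions against undivided cells. The cause of the moved values was not tested.

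No paired analysis was possible because each condition had 1 library. Depth is known only through the number of isoforms, so an isoform or end missing from a library is not shown to be absent from its cells. Libraries were not brought to 1 size, and the part of library size in the counts was not tested.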
